A study of Mus musculus with 6 samples.

Results

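The Myc family and its antagonists were followed in neonatal blood stem and progenitor cells labelled as lacking or keeping the autophagy gene Atg5. The 10 genes were Myc, Mycn, Max, Mxd1, Mxd3, Mxd4, Mxi1, Mnt, Mga and Mlx, and every non-control array probe whose gene name was exactly one of these was taken. This gave 20 probes of 56605 on the array, for 10 of 37074 gene names. All 20 probes and all 10 genes passed the filter on dim probes (at least 3 of the 6 arrays well above background), among 32073 probes of 20777 genes that were tested.

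The study asked what autophagy does in haematopoietic stem cells soon after birth. RNA was taken from LSK cells (lineage marker negative, Sca1+, cKit+), the sorted bone marrow fraction that holds stem cells and early progenitors, of C57BL/6 mice at postnatal days 6 to 8. The control group was Atg5w/w;VaviCre+, labelled wild type, with 3 arrays, and the other group was Atg5f/f;VaviCre+, called Atg5f/f;Vav, with 3 arrays. Both groups carried the Vav-driven Cre recombinase, which acts in haematopoietic cells, so that only the floxed Atg5 allele separated them by genotype. The sources do not say whether a sample was 1 animal or a pool, and p-values then measure the spread between these samples, which may be technical.

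Myc and its close relative Mycn are transcription factors that bind DNA as pairs with Max and drive genes for ribosome production, metabolism and cell division. The Mxd proteins, Mxi1, Mnt and Mga also pair with Max, compete for the same E-box sequence and mostly recruit repressors, while Mlx is a Max-like partner that serves the sugar-sensing Mondo factors and some Mxd proteins. In blood stem cells Myc and Mycn are known to act together in survival and self-renewal, and Myc to influence the balance between renewal and differentiation.

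Values below are log2 signal relative to each array's own 75th percentile, and a fold change is the Atg5f/f;Vav mean over the control mean. All 6 arrays lay on 1 slide, whose rows followed the groups, so that row and genotype cannot be told apart. The 75th percentile lay between 620.3 and 881.4 intensity units, the share of spots well above background was 59.4 to 59.9% on the control arrays and 53.6 to 56.7% on the Atg5f/f;Vav arrays, and no spot was saturated. The Atg5 probe read 1.10, 0.93 and 1.06 in control cells against 1.46, 1.51 and 1.74 in Atg5f/f;Vav cells (log2 fold change 0.54, limma adjusted p = 0.0209), so that signal was higher where the labels say the gene was deleted. That probe starts at base 2251 of its transcript, and since the sources used here do not place the deleted part against it, it does not check the deletion. Groups are named by their labels throughout.

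Of the 10 genes, Myc, Max and Mlx were called higher in Atg5f/f;Vav LSK cells (limma, Benjamini-Hochberg adjusted p under 0.05), and 0 of 10 were called lower by limma. Mycn and Mxd4 had an unadjusted limma p under 0.05 in the lower direction (0.0292 and 0.0424). Over all genes tested 18.7% were called higher and 15.3% lower. By probe, 5 of 20 were called higher (1 of them, the second Mlx probe, passed the filter only through the Atg5f/f;Vav arrays) and 0 lower by limma, against 17.3% and 17.1% of all probes tested. The median log2 fold change of the 10 genes was -0.06, against -0.03 over all genes. The 3 Atg5f/f;Vav arrays lay wholly above the 3 control arrays for 3 of the 10 genes (29.6% of all genes) and wholly below for 3, namely Mycn, Mxd4 and Mxi1 (26.3% of all genes). When control replicate 1 or 2 was left out, 0 of the 10 genes were called higher by limma, and 3 had an unadjusted p under 0.05.

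**Figure D1:**
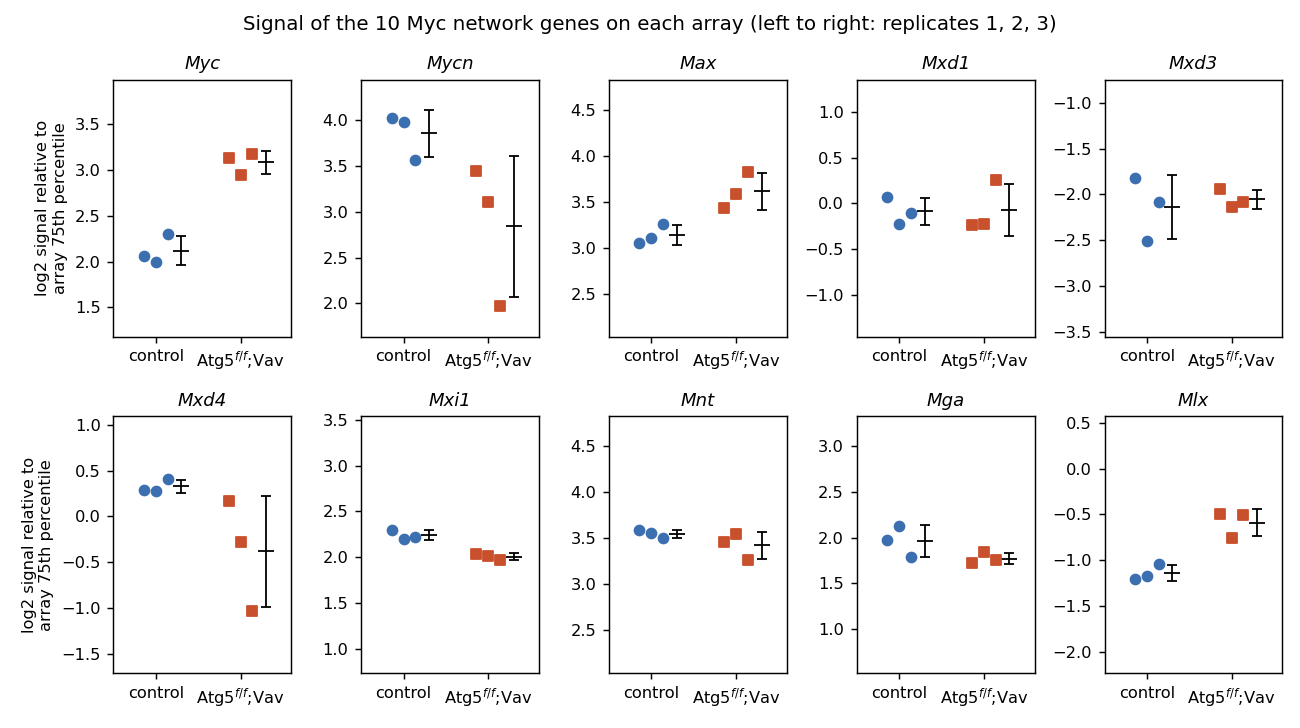
Each panel shows 1 gene, with its representing probe (that with the highest mean signal), as log2 signal relative to the array's 75th percentile; circles are the control arrays, squares the Atg5f/f;Vav arrays, and bars the mean ± SD of 3 arrays. Every panel spans the same range of log2 units. Myc, Max and Mlx are higher on all 3 Atg5f/f;Vav arrays, and Mycn and Mxd4 are lower with the lowest value on Atg5f/f;Vav replicate 3.

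Myc, the family's best known activator, rose 1.95-fold, and was the member with the largest rise. Its representing probe read 2.06, 2.0 and 2.30 in control cells against 3.13, 2.94 and 3.17 in Atg5f/f;Vav cells. The lowest Atg5f/f;Vav array thus stood 0.64 above the highest control array. The log2 fold change was 0.96 with a standard error of 0.13 (1.95-fold, limma adjusted p = 0.0123), larger than in 96.7% of all genes tested. An exact permutation test gave p = 0.1, the smallest that 3 arrays against 3 allow. The other Myc probe read -0.28, -0.37 and -0.26 in control cells against 0.44, 0.43 and 0.91 in Atg5f/f;Vav cells. Here too the groups did not overlap, and the log2 fold change was 0.90 with a standard error of 0.16 (limma adjusted p = 0.0154). Without control replicate 1 or 2 the first probe kept its size (log2 fold change 0.93 and 0.90) but its limma adjusted p was 0.0628 in each case.

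Both Myc probes read the forward strand of chromosome 15 (mm9), and their sequences are shown because the 2 separate stretches gave the same direction. The first line, chr15:61820925-61820984, starts at base 1407 of the Myc transcript. The next, chr15:61821417-61821476, starts at base 1899 and is printed for its first 47 bases, up to the stop codon TAA in capitals, which lies in a frame without any stop in the first probe. Its last 13 bases run past the stop codon.
Myc probe A_52_P278549: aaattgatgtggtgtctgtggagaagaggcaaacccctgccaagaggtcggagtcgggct
Myc probe A_52_P108346: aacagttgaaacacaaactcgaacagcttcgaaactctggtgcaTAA

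Mycn, the relative known for its role in embryonic and stem cell compartments, had 1 probe, chr12:12942981-12943040 (mm9, reverse strand). It read 4.02, 3.98 and 3.56 in control cells against 3.44, 3.11 and 1.97 in Atg5f/f;Vav cells. The groups did not overlap, though Atg5f/f;Vav replicate 1 lay only 0.12 below control replicate 3, and Atg5f/f;Vav replicate 3 was far lower than the rest. The log2 fold change was -1.01 with a standard error of 0.37 (0.496-fold), and it did not pass the threshold (limma adjusted p = 0.0711, exact permutation p = 0.1). Its place among all genes was at the 5.87 percentile. The value was -0.58 (limma adjusted p = 0.0591) without Atg5f/f;Vav replicate 3 and -1.31 (limma adjusted p = 0.0356) without Atg5f/f;Vav replicate 1, where the call was made.

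Myc was also set against Mycn within each array, where scaling between arrays drops out. The Myc probe minus the Mycn probe was -1.96, -1.98 and -1.26 in control cells against -0.31, -0.16 and 1.20 in Atg5f/f;Vav cells. Each Atg5f/f;Vav array lay above all control arrays, and replicate 3 stood farthest. The mean was -1.74 ± 0.41 (SD) in control and 0.24 ± 0.83 (SD) in Atg5f/f;Vav cells, n = 3 each, a difference of 1.98 log2 units. The exact permutation test, two-sided, gave p = 0.1, the smallest it can give here. Since the probes differ in brightness for the same amount of RNA, only the difference between groups is read, not which transcript was more abundant.

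Max, the obligate partner of Myc and of its Max-binding antagonists, was higher at its representing probe, chr12:78038283-78038342 (mm9, reverse strand). The probe read 3.05, 3.11 and 3.26 in control cells against 3.43, 3.59 and 3.83 in Atg5f/f;Vav cells. Groups did not overlap, with a gap of 0.17, and the log2 fold change was 0.48 with a standard error of 0.14 (1.39-fold, limma adjusted p = 0.0383). The second Max probe, chr12:78039312-78039371, read -0.07, 0.04 and -0.10 in control cells against -0.20, 0.02 and 0.66 in Atg5f/f;Vav cells. There the groups overlapped, with 1 high array, replicate 3, in the Atg5f/f;Vav group (log2 fold change 0.20, limma adjusted p = 0.5). The call at the first probe was lost when any of 5 single arrays was left out, each control array and Atg5f/f;Vav replicates 2 and 3 (log2 fold change 0.37 to 0.54, limma adjusted p 0.0549 to 0.132), and under quantile normalisation (0.18, limma adjusted p = 0.225).

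Mxd1, an antagonist that rises as many cell types leave the cycle, overlapped between the groups. Its representing probe, chr6:86597190-86597249, read 0.07, -0.22 and -0.11 in control cells against -0.24, -0.23 and 0.25 in Atg5f/f;Vav cells. The lowest and the highest of the 6 values were both in the Atg5f/f;Vav group, and the log2 fold change was 0.02 with a standard error of 0.17 (limma adjusted p = 0.95). The other Mxd1 probe, chr6:86600751-86600810, gave -0.03 with a standard error of 0.34 (limma adjusted p = 0.95).

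Mxd3, the antagonist that is unusual in being expressed in dividing cells, also overlapped. Its representing probe, chr13:55427000-55427059, read -1.82, -2.51 and -2.08 in control cells against -1.94, -2.14 and -2.08 in Atg5f/f;Vav cells. The widest spread was within the control group, and the log2 fold change was 0.08 with a standard error of 0.19 (limma adjusted p = 0.756). The second Mxd3 probe, which spans 174 bases of the genome and so crosses an intron, gave 0.32 with a standard error of 0.22 (limma adjusted p = 0.293).

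Mxd4, a further Mxd repressor, was lower on every Atg5f/f;Vav array at both of its probes, but neither passed the threshold. The representing probe, chr5:34516836-34516895 (mm9, reverse strand), read 0.29, 0.28 and 0.41 in control cells against 0.17, -0.28 and -1.03 in Atg5f/f;Vav cells. Control arrays were close together, while Atg5f/f;Vav replicate 1 lay just below them and replicate 3 far below. The log2 fold change was -0.71 with a standard error of 0.28 (0.613-fold, limma adjusted p = 0.0919, exact permutation p = 0.1). The second probe, chr5:34520307-34520366, read -1.57, -1.78 and -1.65 in control cells against -1.82, -2.20 and -3.34 in Atg5f/f;Vav cells. Its groups were apart by 0.04, with replicate 3 again lowest, and its log2 fold change was -0.79 with a standard error of 0.36 (limma adjusted p = 0.129). Without Atg5f/f;Vav replicate 3 the value at the representing probe was -0.38, and without replicate 1 it was -0.98 with a limma adjusted p of 0.0277.
The second probe is shown because it repeats the order of the Atg5f/f;Vav arrays at a separate site of the gene.
Mxd4 probe A_51_P148865: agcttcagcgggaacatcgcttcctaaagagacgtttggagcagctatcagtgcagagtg

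Mxi1, the Mxd family member first found as a Max interactor, differed little but evenly. Its representing probe, chr19:53447579-53447638, read 2.30, 2.20 and 2.22 in control cells against 2.04, 2.01 and 1.97 in Atg5f/f;Vav cells. The groups stood 0.17 apart, with an SD of 0.05 and 0.04 within them. The log2 fold change was -0.23 with a standard error of 0.10 (0.85-fold, limma adjusted p = 0.105). At the second probe, chr19:53406950-53407009, it was -0.65 with a standard error of 0.28 (limma adjusted p = 0.11) and the groups overlapped.

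Mnt, the antagonist present in most cell types, had 1 probe, chr11:74658915-74658974, which read 3.59, 3.55 and 3.5 in control cells against 3.46, 3.54 and 3.26 in Atg5f/f;Vav cells. The groups overlapped and the log2 fold change was -0.13 with a standard error of 0.12 (limma adjusted p = 0.421).

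Mga, the largest protein of the network, carries a second DNA-binding domain and is part of a Polycomb repressor complex. Its 4 probes gave log2 fold changes of -0.19, -0.20, -0.53 and -0.44, all below 0 and none past the threshold (limma adjusted p 0.254, 0.267, 0.0574 and 0.123). The representing probe, chr2:119786137-119786470, crosses an intron and read 1.97, 2.13 and 1.79 in control cells against 1.72, 1.84 and 1.75 in Atg5f/f;Vav cells. Those groups overlapped, by 1 control array. The third probe, chr2:119767298-119767357, read -1.13, -1.18 and -1.36 in control cells against -1.99, -1.89 and -1.39 in Atg5f/f;Vav cells, which left the groups 0.02 apart.

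Mlx, the partner of the Mondo factors, rose at its representing probe. The representing probe, chr11:100952426-100952485 (mm9, forward strand), read -1.20, -1.17 and -1.04 in control cells against -0.50, -0.76 and -0.51 in Atg5f/f;Vav cells. The groups were 0.29 apart, and the log2 fold change was 0.55 with a standard error of 0.12 (1.46-fold, limma adjusted p = 0.0196). The second probe, chr11:100952890-100952949, was dim, standing well above background on all 3 Atg5f/f;Vav arrays but only 1 control array. It read -5.41, -5.08 and -4.69 against -4.55, -4.36 and -4.02, again without overlap. It passed the filter only through the Atg5f/f;Vav arrays, so these values are a description. Without control replicate 1 or 2 the representing probe gave 0.52 and 0.53, with limma adjusted p of 0.0802 and 0.0788.

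**Figure D2:**
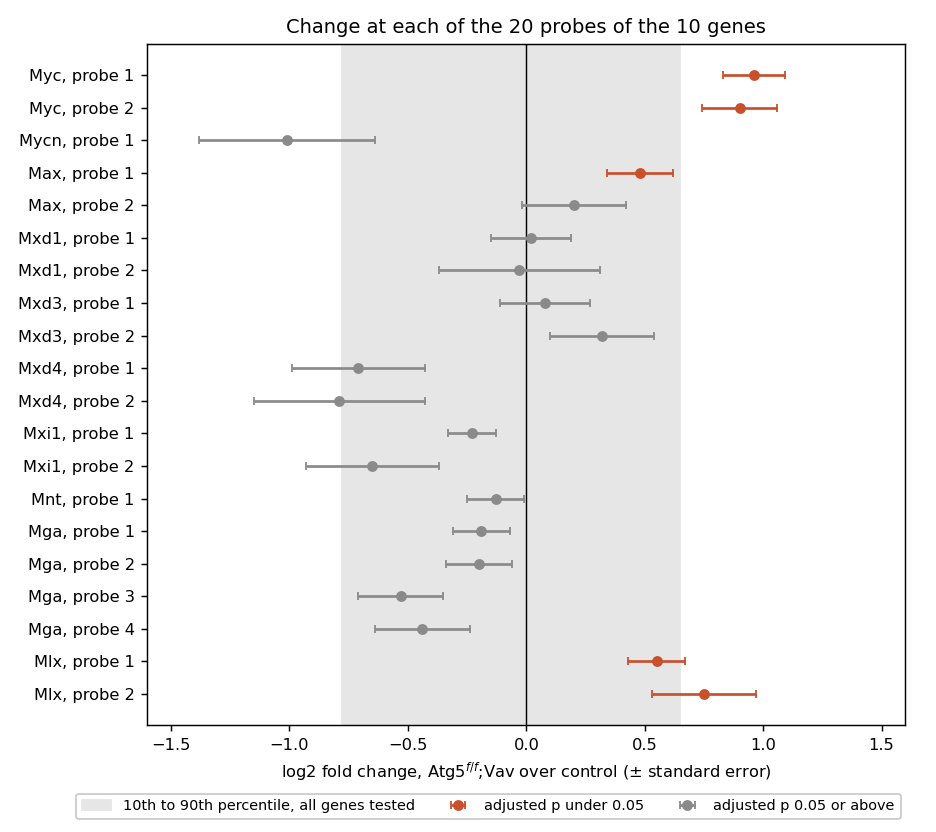
Log2 fold change of Atg5f/f;Vav over control (x axis, with its standard error) at each of the 20 probes, where probe 1 is the representing probe of a gene. The shaded band runs from the 10th to the 90th percentile of all 20777 genes tested (-0.78 to 0.65). Both Myc probes lie to the right of the band and the Mycn probe to its left, and both Mlx probes (the second is dim in control) and 1 of 2 Max probes are called.

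Myc-Max pairs and their antagonists share the E-box CACGTG as their preferred site, so the promoters available for the 10 genes were searched for it. The sequence is its own reverse complement, and 1 search therefore covers both strands. RefSeq promoters (GRCm38.p6, 250 bases before to 50 bases after the transcript start) matched 9 of the 10 genes, with 11 entries. Myc had no entry, so its promoter was not searched. Of the 9 genes 4 held CACGTG, namely Max, Mlx, Mnt and Mxd4, in 4 of the 11 entries. Of all 32851 RefSeq promoters 7.15% held it. The match began 3 bases before the start in Max, 40 before in Mlx, 123 before in Mnt and 219 before in Mxd4. Of these genes Max and Mlx were called higher, and Mnt and Mxd4 were not called. A match describes these letters and shows no binding. The promoters are shown, with the E-box in capitals, because they place the network's own target sequence at its own genes.
Max promoter, chr12:76962199-76962498, reverse strand: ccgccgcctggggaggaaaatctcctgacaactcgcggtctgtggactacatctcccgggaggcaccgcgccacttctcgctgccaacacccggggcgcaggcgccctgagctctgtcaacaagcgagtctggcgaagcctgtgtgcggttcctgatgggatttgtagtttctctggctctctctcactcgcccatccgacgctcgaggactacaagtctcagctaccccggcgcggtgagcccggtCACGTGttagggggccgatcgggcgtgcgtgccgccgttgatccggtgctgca
Mlx promoter, chr11:101087040-101087339, forward strand: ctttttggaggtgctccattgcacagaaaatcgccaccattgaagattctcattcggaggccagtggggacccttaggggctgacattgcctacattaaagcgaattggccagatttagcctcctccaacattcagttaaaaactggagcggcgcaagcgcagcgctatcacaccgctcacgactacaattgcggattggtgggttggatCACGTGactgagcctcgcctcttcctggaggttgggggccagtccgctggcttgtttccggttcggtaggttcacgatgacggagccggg
Mnt promoter, chr11:74830674-74830973, forward strand: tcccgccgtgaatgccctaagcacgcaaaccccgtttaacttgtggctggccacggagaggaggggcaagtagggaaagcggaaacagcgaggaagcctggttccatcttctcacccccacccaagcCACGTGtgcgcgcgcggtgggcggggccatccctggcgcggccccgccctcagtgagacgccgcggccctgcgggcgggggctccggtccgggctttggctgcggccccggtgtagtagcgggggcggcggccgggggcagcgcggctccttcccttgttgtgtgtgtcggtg
Mxd4 promoter, chr5:34187661-34187960, reverse strand: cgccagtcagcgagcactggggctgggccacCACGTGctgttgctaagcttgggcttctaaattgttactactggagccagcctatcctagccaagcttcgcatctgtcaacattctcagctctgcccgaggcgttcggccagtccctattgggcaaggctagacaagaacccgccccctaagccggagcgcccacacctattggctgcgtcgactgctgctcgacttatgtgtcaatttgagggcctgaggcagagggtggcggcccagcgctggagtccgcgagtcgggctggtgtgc

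Among the other factors of the network, Mycl and Mycs were not well above background on enough arrays to be tested. Mlxip, also called MondoA, gave a log2 fold change of 0.19 at its representing probe (limma adjusted p = 0.358) and -0.86 at its other probe. Mlxipl, also called ChREBP, read 2.73, 2.69 and 2.47 in control cells against 2.07, 2.49 and 2.16 in Atg5f/f;Vav cells. The groups overlapped by 1 control array, and its log2 fold change was -0.39 (limma adjusted p = 0.0821). Over all genes tested limma called 15.3% lower and 18.7% higher. Of 3 genes that MondoA-Mlx pairs are known to induce, 2 fell and 0 rose by limma (0 were higher at unadjusted p under 0.05). These were Txnip, an inhibitor of thioredoxin and of glucose uptake (-0.54, limma adjusted p = 0.0240), and the transcription factor gene Klf10 (-0.60, limma adjusted p = 0.0207). Txnip read 5.21, 5.18 and 5.38 in control cells against 4.81, 4.82 and 4.52 in Atg5f/f;Vav cells, with no overlap. Arrdc4, a relative of Txnip, gave -0.01 (limma adjusted p = 0.961), and its other probe -0.76. Leaving out control replicate 1 or 2 left 0 of the 3 called by limma, with 2 lower at unadjusted p under 0.05, and 1 was called without control replicate 3.

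Genes that Myc is known to induce were mostly higher. Of 34 such genes 30 rose and 1 fell (88.2% and 2.94%, against 18.7% and 15.3% of all genes tested). The list's median log2 fold change was 0.83, against -0.03 over all genes tested. Tfrc, the transferrin receptor, rose by 2.15 on the log2 scale (4.42-fold, limma adjusted p = 0.0114), from 0.09, -0.10 and 0.13 in control cells to 1.67, 2.06 and 2.82 in Atg5f/f;Vav cells. Nolc1, a nucleolar phosphoprotein, rose by 1.29 (limma adjusted p = 0.0165) and Srm, which makes spermidine, by 1.21 (limma adjusted p = 0.0155). Tert, the catalytic subunit of telomerase, fell instead, from -1.27, -1.52 and -1.52 to -2.20, -2.52 and -3.12 (log2 fold change -1.18, limma adjusted p = 0.0171). The summed signal of the 34 genes, in multiples of the array's 75th percentile, was 848 to 970 on the control arrays and 1290 to 1570 on the Atg5f/f;Vav arrays, with no overlap. The list was chosen with results of these data known.

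The 19 proliferation genes measured beside them, which are cell cycle and DNA replication genes, all rose, with a median log2 fold change of 0.72. Over all genes tested limma called 18.7% higher. Plk1, a mitotic kinase, rose by 1.17 (limma adjusted p = 0.0172), and Aurkb, another mitotic kinase, by 1.09 (limma adjusted p = 0.0167). Their summed signal was 275 to 337 on the control arrays and 427 to 520 on the Atg5f/f;Vav arrays. Their part in the result for the Myc-induced genes was not tested. Without control replicate 1 or 2, when limma called only 124 and 108 genes higher over the whole array, 0 of the 34 Myc-induced genes and 0 of the 19 proliferation genes were called. At unadjusted limma p under 0.05, 29 and 30 of the Myc-induced genes and 18 and 19 of the proliferation genes were then higher. The medians were 0.79 and 0.77 for the Myc-induced genes, and 0.72 and 0.58 for the proliferation genes. Under quantile normalisation 23 Myc-induced and 9 proliferation genes were called higher, with medians of 0.53 and 0.42, and without the filter on dim probes 21 and 6 were called.

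Genes that Myc is known to repress did not move one way. Of 10 listed, Cdkn2b and Gas1 were not measured. Of the other 8, 3 were called higher, 1 lower and 4 neither, with a median of 0.03. The shares, 37.5% higher and 12.5% lower, stand beside 18.7% and 15.3% of all genes tested. Cdkn1a, the p21 inhibitor of the cell cycle, rose from -1.84, -1.40 and -0.95 in control cells to -0.15, -0.35 and -0.27 in Atg5f/f;Vav cells (log2 fold change 1.14, limma adjusted p = 0.0168). Cebpa, a myeloid transcription factor, rose by 0.91 (limma adjusted p = 0.0214), and Gadd45a, a stress-induced growth arrest gene, by 0.73 (limma adjusted p = 0.0339). The lower call was Thbs1, which encodes thrombospondin. It was not well above background on any Atg5f/f;Vav array, so that it was at least 2.10-fold lower. That bound sets the control mean against, on each Atg5f/f;Vav array, the lowest signal of any probe well above background. It passed the filter only through the control arrays, so it had to be higher there, and with the filter on all 6 arrays the list held no lower call. With control replicate 1 or 2 left out, 0 of the 8 were called by limma, and 3 were higher and 1 lower at unadjusted p under 0.05.

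**Figure D3:**
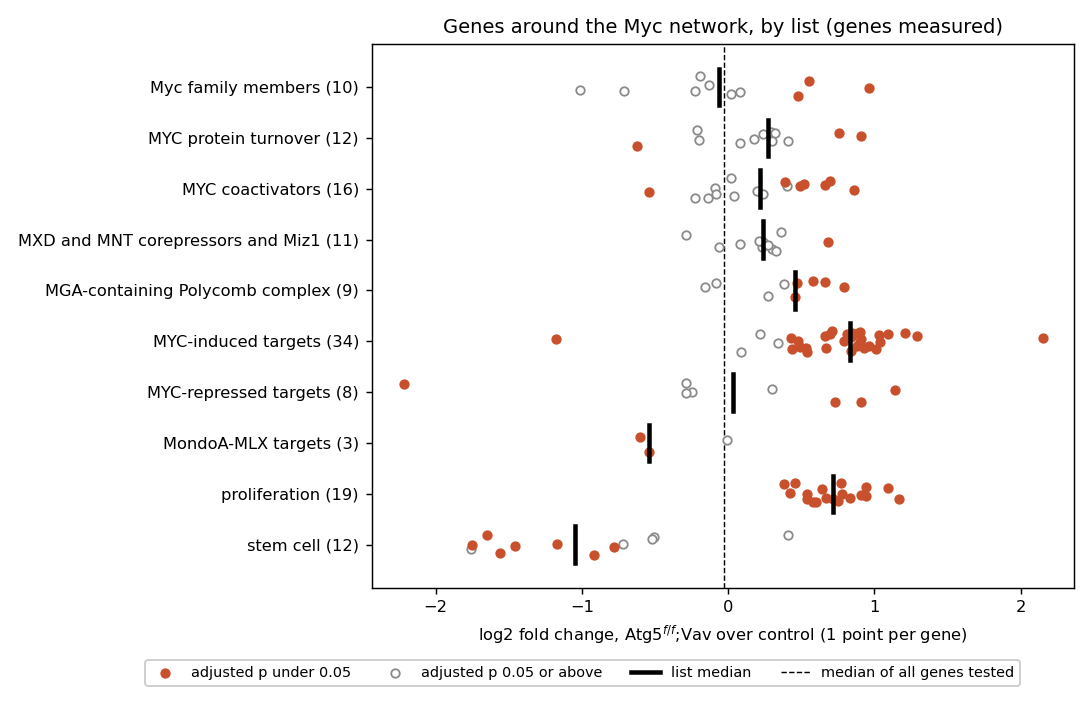
Log2 fold change of Atg5f/f;Vav over control (x axis) for each gene of 10 lists (y axis, number of genes measured in brackets); filled points passed the threshold, thick bars are list medians and the dashed line is the median of all genes tested (-0.03). The 34 Myc-induced genes centre on 0.83 and the 19 proliferation genes on 0.72, while the 12 stem cell markers centre on -1.05 and the 10 Myc network genes on -0.06.

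Cofactors were mixed. Of 16 coactivator genes 6 rose and 1 fell, with a median of 0.22. These shares, 37.5% and 6.25%, stand beside 18.7% higher and 15.3% lower over all genes tested. The largest rises were Ruvbl2 (0.86), Actl6a (0.70) and Ruvbl1 (0.66), which encode subunits of chromatin-remodelling and acetyltransferase complexes (limma adjusted p 0.0164, 0.0153 and 0.0191), though the other Actl6a probes gave 0.02 and -0.48. Crebbp, the acetyltransferase CBP, fell by 0.54 on the log2 scale (limma adjusted p = 0.0421). Of 11 genes for the repressors that Mxd and Mnt proteins recruit, with the Myc partner Miz1, 1 rose, the Sin3 complex gene Sap30 (0.68, limma adjusted p = 0.0178), and 0 fell by limma, with a median of 0.24. The share called higher, 9.09%, was below the 18.7% of all genes tested. In the lower direction 1 of the 11 had an unadjusted limma p under 0.05. By limma 0 of the coactivator and corepressor genes were called without control replicate 1 or 2, while 5 coactivators and 1 corepressor gene were higher at unadjusted p under 0.05 in each case.

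Among partners of Mga in its Polycomb complex, 5 of 9 genes rose and 0 fell by limma, with a median of 0.46. In the lower direction 0 had an unadjusted limma p under 0.05. The share called higher was 55.6%, against 18.7% of all genes tested. L3mbtl2, a chromatin reader of that complex, read 2.18, 2.12 and 2.4 in control cells against 2.82, 2.90 and 3.35 in Atg5f/f;Vav cells. It rose by 0.79 (limma adjusted p = 0.0190), and its other probes gave 0.92 and 0.97. Tfdp1, the partner of E2F factors, rose by 0.66 (limma adjusted p = 0.0227), and its other probe gave 0.52. Pcgf6, the RING finger subunit of the complex, rose by 0.58 (limma adjusted p = 0.0289), but its other probe gave 0.03. Second probes of the other called genes gave 0.25 and 0.06. The difference between these genes and Mga was not tested. Of the 9, limma called 0 without control replicate 1 or 2, and 5 were higher at unadjusted p under 0.05. The count was 3 without control replicate 3, Atg5f/f;Vav replicate 1 or Atg5f/f;Vav replicate 3, 3 under quantile normalisation, 2 with the 75th percentile over probes well above background on all arrays, 2 when a gene's probes were averaged and 1 without the filter on dim probes. Averaging the probes also gave 1 lower call.

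Of 12 genes that set the stability of the Myc protein 2 rose and 1 fell, with a median of 0.27. These shares, 16.7% higher and 8.33% lower, were below those of all genes tested (18.7% and 15.3%), and the median was 0.04 under quantile normalisation and 0.06 with the 75th percentile over probes well above background on all arrays. Aurka, a mitotic kinase that also shields Mycn from breakdown, rose by 0.91 (limma adjusted p = 0.0172). Btrc, an F-box ubiquitin ligase subunit, fell by 0.62 (limma adjusted p = 0.0486), and its other probe gave -0.23. Fbxw7, the F-box protein that marks phosphorylated Myc for destruction, gave 0.08 (limma adjusted p = 0.562). Among 4 adhesion genes tied to Myc in stem cells, Itgal was called higher (0.45, limma adjusted p = 0.0293) but its other 2 probes gave -0.50 and -0.49. Cdh2, which encodes N-cadherin, gave -0.61 (limma adjusted p = 0.103), Itgb1 gave 0.05 (limma adjusted p = 0.7) and Itgb2 gave -0.22 (limma adjusted p = 0.268). In these lists 0 genes were called by limma when control replicate 1 or 2 was left out.

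The array on which Mycn and Mxd4 were lowest, Atg5f/f;Vav replicate 3, also had the lowest summed signal of stem cell markers. Of 12 stem cell markers 7 fell and 0 rose by limma, with a median log2 fold change of -1.05, and all 12 were measured. The share called lower was 58.3%, against 15.3% of all genes tested, and 0 were higher at unadjusted p under 0.05. Mecom, Hlf and Procr, all genes of high expression in long-term stem cells, gave -1.75, -1.65 and -1.56 (limma adjusted p 0.0168, 0.0172 and 0.0273). The summed signal of the 12 was 50.9 to 56.4 on the control arrays, 32.4 and 31.4 on Atg5f/f;Vav replicates 1 and 2, and 17.4 on replicate 3. Mycn and Mxd4 were also lowest on replicate 3, whereas Myc was not (3.13, 2.94 and 3.17). Without Atg5f/f;Vav replicate 3, 8 of the 12 markers were called lower by limma, with a median of -0.87. The count was 4 without control replicate 3 and 0 without control replicate 1 or 2, where 7 and 8 were lower at unadjusted p under 0.05. In bulk RNA of a sorted fraction, fewer cells of a type and less RNA per cell cannot be told apart. The part of the stem cell markers in the values for Mycn and Mxd4 was not tested.

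**Figure D4:**
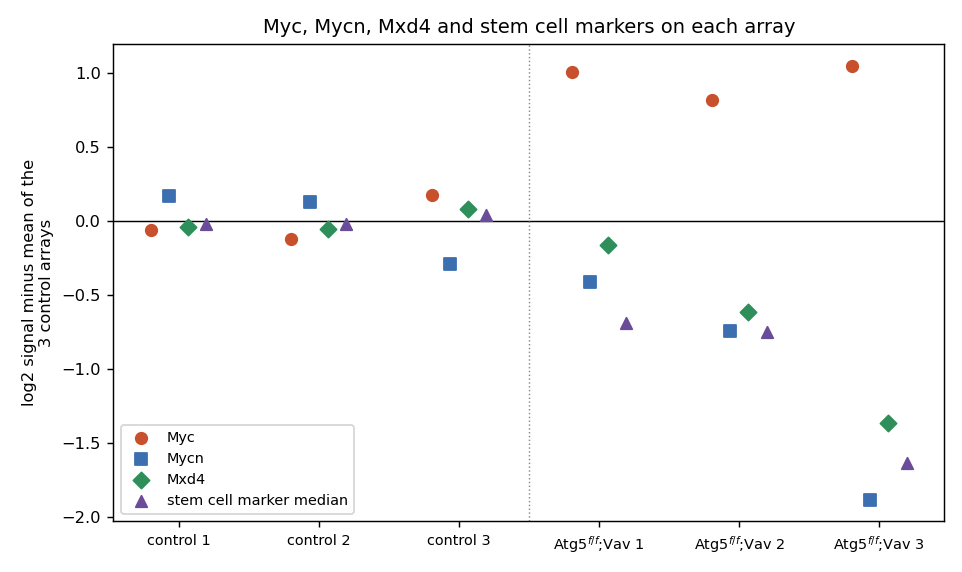
Log2 signal minus the mean of the 3 control arrays (y axis) on each of the 6 arrays (x axis), for Myc, Mycn and Mxd4 at their representing probes and for the median of 12 stem cell markers. On Atg5f/f;Vav replicate 3 Mycn is at -1.88, Mxd4 at -1.36 and the marker median at -1.63, while Myc is at 1.05, close to its 1.01 and 0.82 on the other Atg5f/f;Vav arrays.

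The markers of the sort were present. Ly6a, which encodes Sca1, Kit, Ptprc, Cd34 and Flt3 were well above background on all 6 arrays. Ly6a rose by 1.57 (limma adjusted p = 0.00622). Ptprc, the pan-leukocyte gene CD45, was called lower (log2 fold change -0.34) only just, with a limma adjusted p that rounds to 0.05. Its other 6 probes gave -0.66, -0.33, -1.11, -1.16, -0.35 and -0.15. The 5 sort markers held 0 lower calls without control replicate 1, 2 or 3, without Atg5f/f;Vav replicate 2 or 3, and with the deposited values. They held 2 without Atg5f/f;Vav replicate 1, 3 after normexp background correction and 3 after quantile normalisation. Kit gave -0.38 (limma adjusted p = 0.0563), Flt3, a marker of multipotent progenitors, -0.87 (limma adjusted p = 0.0675) and Cd34 -0.27 (limma adjusted p = 0.36). The other probes gave -0.67 and -0.62 for Kit, -0.85 for Flt3 and -0.73 for Cd34. Some markers of other cell types were also called. Limma called 34.1% of all genes tested in either direction, 18.7% higher and 15.3% lower. The marker lists are short, and their counts were not tested against these shares. Of 8 erythroid genes 4 rose, among them the carbonic anhydrase gene Car1 (3.80), Gata1 (3.0) and Klf1 (2.95). Another 3 fell, the haemoglobin genes Hba-a1 (-2.26) and Hbb-b1 (-1.92) and the haem synthesis gene Alas2 (-2.07). The list's median log2 fold change was 0.55. Its summed signal was 221 to 499 on control and 80.9 to 136 on Atg5f/f;Vav arrays. That sum mostly follows Hba-a1, the brightest of these probes (8.9, 8.84 and 7.72 against 6.0, 6.42 and 6.28), and not the list. Of 8 neutrophil genes 2 rose and 5 fell (summed 175 to 277 and 216 to 270), and of 4 stromal and endothelial genes measured 3 fell (2.81 to 30.9 and 0.984 to 1.59), where Col3a1 and Cdh5 were not well above background and control replicate 1 was at 2.81. By limma 0 of 4 macrophage genes (C1qa and C1qc were too dim to test, and 0 had an unadjusted p under 0.05), 0 of 4 T and NK cell genes (Cd3g was too dim to test, and 1 had an unadjusted p under 0.05), 1 of 6 B cell genes, 3 of 5 megakaryocyte genes and 2 of 5 mast cell genes were called in either direction. Without control replicate 1 or 2, limma called 0 erythroid, neutrophil, B cell and megakaryocyte genes. At unadjusted p under 0.05, 4 erythroid genes were then higher and 3 lower, and 2 neutrophil genes higher and 5 lower. The stromal and endothelial list kept 3 lower calls without control replicate 1 and 0 without control replicate 2. The part of these cell types in the values of the Myc network was not tested.

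For Myc and for Mycn, the 3 genes with the most alike pattern over the arrays were found by the root mean square difference over the 6 arrays between each gene's deviations from its own mean, among 18386 other genes well above background on every array. Next to Myc came the probe named NAP026435-1 and Samm50, a mitochondrial outer membrane assembly gene, both at 0.036 log2 units, and Dbnl, an actin-binding adaptor, at 0.04. Samm50 read 1.37, 1.30 and 1.63 in control cells against 2.45, 2.35 and 2.54 in Atg5f/f;Vav cells. Like Myc it had its lowest control value on replicate 2 and its lowest Atg5f/f;Vav value on replicate 2. Next to Mycn came a probe for an unnamed transcript on chromosome 10 at 0.058, Tox, a nuclear factor of lymphocyte development, at 0.059, and LOC101055656 at 0.087. Tox read -1.22, -1.25 and -1.59 in control cells against -1.83, -2.15 and -3.38 in Atg5f/f;Vav cells, with its lowest value on Atg5f/f;Vav replicate 3, as for Mycn. Such likeness over 6 arrays of 2 groups is a description and carries no test.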

How the data were processed

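Total RNA of 6 LSK samples was labelled with Cy3 and hybridised to 1-colour Agilent arrays. Per the file headers and labels, the authors scanned and quantified them with Agilent Feature Extraction 12.0.3.1. The deposited scanner files hold spot intensity, background-subtracted and detrended but not scaled between arrays. A deposited table of the same arrays holds signal divided by 1 constant per array. This was found by setting it against the spot intensity (constant ratio within 0.000267% on each array). The deposited log2 column medians were -3.83 to -3.43.

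For this report, each array's log2 processed intensity was centred on its 75th percentile over non-control spots, with outlier-flagged spots left out and spots of a probe averaged. The probe with the highest mean signal represented a gene. Scaling by a percentile assumes that the bulk of probes does not shift. Groups were compared with limma 3.58.1 (lmFit, eBayes, R 4.3.3) over the 32073 probes that at least 3 of the 6 arrays showed well above background, with Benjamini-Hochberg adjustment and a threshold of 0.05, without covariates. Exact permutation tests were two-sided. The code was tested on simulated data. The number of arrays, 3 per group, limits the precision. Tabulated alternatives covered background correction, scaling, filters, flags, variance model, test, block and left-out arrays. All deposited columns were mapped to samples (0 were left over).

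The members and gene lists were chosen with earlier results of these data known. Genes named were all 10 members with every probe, every other network factor, the 3 genes most like Myc and Mycn, and Atg5. Of each list at most 3 called genes in each direction were named, and all genes of lists with up to 6 measured. Lineage markers were instead mostly given as counts and ranges. Fbxw7 was named after its values were seen, and some list genes are not reported here by name. Cip2a was found under its older name. Replicate numbers did not pair the samples. Probe coordinates are mm9, as deposited.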

Additional observations from a re-analysis of the deposited data

How the results depend on the processing

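Of the 10 genes 3 were called higher and 0 lower by limma. The count of higher calls was 1 (Myc) without the filter on dim probes and 0 by the methods' t-test after Benjamini-Hochberg adjustment, which called no gene on the whole array (smallest adjusted p 0.0506) and had 3 unadjusted. Leaving out 1 array at a time gave 0 to 3 higher calls and 0 to 2 lower calls. Higher calls were 0 without control replicate 1 or 2, where probes called over the whole array fell from 5540 higher to 188 and 155. Lower calls were 2 (Mycn, Mxd4) after normexp background correction, 2 (Mycn, Mxi1) with the 75th percentile over probes well above background on all arrays, 1 (Mxi1) after quantile normalisation, 1 (Mycn) with an intensity trend, 1 (Mxi1) by the unadjusted methods' t-test and 1 (Mycn) with the replicate number as a block. The block made no difference to the 3 higher calls. The correlation of same-numbered arrays was -0.07, 0.19 and 0.11, so the numbers were not taken as pairs. The second 75th percentile scaling moved the median of all genes from -0.03 to -0.24. Myc was called in 15 of 18 alternatives, Mlx in 14, Max in 8, Mycn in 5, Mxi1 in 3 and Mxd4 in 2, and all 6 kept their sign throughout. The 18 include the methods' t-test without adjustment, where a call meant an unadjusted p under 0.05. These tallies are therefore not all of adjusted calls. Myc minus Mycn ranged from 1.5 to 2.25 when arrays were left out.

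Some values turned sign. Mxd1 gave -0.19 with that scaling, -0.01 with the mean of all probes, -0.05 without control replicate 2 and -0.14 without Atg5f/f;Vav replicate 3 (-0.14 to 0.10 over left-out arrays). Mxd3 gave -0.13 with that scaling and -0.11 without control replicate 2 (-0.11 to 0.24). The Myc-repressed median was -0.01 with normexp, -0.18 with that scaling, and -0.01 and -0.04 without Atg5f/f;Vav replicates 1 and 2 (-0.04 to 0.21). Under quantile normalisation the coactivator and corepressor medians were -0.03 and -0.02. The macrophage median was -0.07 with that scaling, and the T and NK cell median 0.28 with the filter on all 6 arrays. The mast cell and basophil median was 0.12 without control replicate 3 and 0.30 without Atg5f/f;Vav replicate 2 (-0.33 to 0.30). The causes were not tested. A block for slide or scan could not be fitted, since all arrays share 1 slide.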

Other observations

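Probes within 300 kb of the Myc and Mycn probes (mm9) were read after their values had been seen, and are given as values. Near Myc lay 15 probes, of which 6 were tested, and limma called 4 higher and 0 lower. In the lower direction 0 had an unadjusted p under 0.05. Over all probes tested 17.3% were called higher. The 4 called probes lie 253 to 265 kb downstream. Of these, 2 are probes of Pvt1, the long non-coding RNA gene next to Myc. The other 2 share the name of 1 unnamed transcript of the same stretch and strand. The unnamed probe at chr15:62074025-62074084 shares bases with the Pvt1 probe at chr15:62074057-62074116. The 4 are therefore not separate readings. The Pvt1 probe at 260 kb read -3.41, -3.04 and -2.95 in control cells against -1.49, -0.70 and 0.43 in Atg5f/f;Vav cells (log2 fold change 2.55, limma adjusted p = 0.0155). The Pvt1 probe at 253 kb gave 1.73 (limma adjusted p = 0.0299), and another Pvt1 probe was not well above background on any array. Both tested Pvt1 probes were highest on Atg5f/f;Vav replicate 3, the array with the lowest Mycn. H2afy3, in the same region, gave -0.43 (limma adjusted p = 0.123).

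Near Mycn lay 10 probes, of which 5 were tested. Ddx1, a helicase gene 288 kb away, read 2.11, 2.10 and 2.23 in control cells against 2.80, 2.75 and 3.13 in Atg5f/f;Vav cells, and rose by 0.75 (limma adjusted p = 0.0161). A probe of an unnamed transcript gave -0.45 (limma adjusted p = 0.0489). The direction at Ddx1 was opposite to that of the Mycn values.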
